A study of Homo sapiens with 6 samples.

Results

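Keratins are the intermediate filament proteins of epithelial cells, and the 55 keratin genes described here are all rows of the expression table whose symbol is KRT followed by a number and at most one letter from A to C, out of 20388 gene symbols in the table. Of these, 29 encode acidic type I keratins and 26 encode basic type II keratins. The cells were MHCC-97H, a human liver cancer line of wild-type genotype. There were 3 libraries from cells kept for 24 h in 2 µM GK921, which inhibits the protein cross-linking enzyme transglutaminase 2 (gene TGM2), and 3 from cells kept for 24 h with the solvent DMSO. Levels are in FPKM, a unit of fragments corrected for gene length and library size, so genes can be set side by side. All libraries came from this single line, and nothing states that the 3 libraries of a group were separate cultures, so p-values measure the spread between libraries, which may be technical.

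A keratin filament is built from pairs of one type I and one type II chain, and an excess of unpaired chain is normally degraded. The pair of hepatocytes is KRT8 with KRT18, while KRT7 and KRT19 are added in bile duct cells. In injured hepatocytes KRT8 and KRT18 can collect in Mallory-Denk bodies, inclusions that also hold the adaptor SQSTM1, and in mice a lack of Tgm2, whose enzyme can cross-link keratin proteins, hinders their formation. Stratified epithelia use other pairs, among them KRT5 with KRT14 or KRT15 and KRT1 with KRT10, and hair uses a set of its own.

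The libraries of a group were closely alike across tested genes (r = 0.993 to 0.995 on log2 values), against 0.914 between groups. Read totals are unknown. Estimated from low FPKM steps in 88 genes, depth relative to the first DMSO library was 0.774, 0.791 and 0.861 in the GK921 libraries, against 1, 0.948 and 0.871 in the DMSO libraries, so low values are coarser after GK921. The lowest non-zero keratin value was between 0.05 and 0.08 FPKM in each library. TGM2 RNA averaged 42.6 ± 0.345 FPKM in GK921 libraries and 42.1 ± 0.0265 FPKM in DMSO libraries (SD, n = 3 each). GK921 acts on the enzyme, so this does not check the treatment.

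The labels give liver and hepatocellular carcinoma, but defining hepatocyte genes were near 0. ALB, the gene of serum albumin, was at 0.11, 0 and 0.05 FPKM in GK921 libraries, against 0.09, 0.14 and 0.05 FPKM in DMSO libraries, and APOA2, an apolipoprotein gene, was listed at 0 in all 6. AFP, the fetal counterpart of albumin, averaged 0.373 ± 0.0379 FPKM after GK921 and 0.783 ± 0.19 FPKM in DMSO, and FGB, a fibrinogen gene, 0.0233 ± 0.0404 FPKM after GK921 and 0.583 ± 0.0569 FPKM in DMSO. HNF4A, the transcription factor of hepatocyte identity, was the only one of 10 hepatocyte markers tested. Its level was 8.57 ± 1.68 FPKM after GK921 and 9.11 ± 1.14 FPKM in DMSO (limma adjusted p = 0.579). Of the bile duct markers, SPP1 and CLDN4 were abundant, CLDN4 at 220 ± 10.6 FPKM after GK921 and 220.7 ± 4.03 FPKM in DMSO (limma adjusted p = 0.91, but called lower with median ratios), while CFTR was listed at 0 in all libraries.

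Of the 55 keratins, 29 were listed at 0 in every library and 26 had a value above 0 in at least 1. Only 10 reached a mean of 1 FPKM over the 6 libraries and were tested: the type I genes KRT18, KRT20, KRT19, KRT10, KRT15 and KRT34, and the type II genes KRT8, KRT80, KRT7 and KRT86. At the limit, KRT34 (mean 1.29 FPKM) was just inside, and KRT16 (0.74 FPKM) and KRT12 (0.628 FPKM) just outside. KRT34 and KRT86 passed only because of their GK921 values, so a rise of these 2 was fixed by the limit and is given as values, not as a result. In any GK921 library 11 or 12 keratins were at 1 FPKM or more, against 8 in each DMSO library.

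Abundant and less abundant keratins differed in direction among those that could be tested. The abundant keratins KRT8, KRT19 and KRT20 were 1.22-fold to 1.58-fold lower after GK921, and KRT18 differed by 1.06-fold. KRT10, KRT15, KRT7 and KRT80, which were less abundant but at 1 FPKM or more in the mean of each group, were higher after GK921, from 1.92-fold for KRT10 to 7.64-fold for KRT80. Keratins low in both groups were not tested, among them some that were not higher: KRT23, a keratin known from gut and liver disease, was at 0.08, 0.08 and 0 FPKM in GK921 libraries, against 0.44, 0.20 and 0.07 FPKM in DMSO libraries. By limma on log2(FPKM + 1), with Benjamini-Hochberg adjustment over the 11573 genes that reached the limit, 7 of 10 tested keratins, KRT34 and KRT86 included, rose and 3 fell at an adjusted p under 0.05. Such calls were common: 46.8% of all tested genes were called higher, 29.2% lower and 75.9% in either direction, so the count among keratins is read against a high background. With median-ratio rescaling, 4259 of all tested genes were called higher and 4317 lower in place of 5411 and 3378, and 6 keratins rose and 4 fell. No overlap between groups was seen in any of the 10, as for 78.0% of all tested genes. Rises of at least 1 log2 unit were called for KRT80, KRT7 and KRT15, beside KRT86 and KRT34, whose rise the limit fixed, and for 9.87% of all tested genes. The lowest keratin change was -0.66, while falls of at least 1 were called for 6.24% of all tested genes. The median tested gene changed by 0.16 on the log2 scale, and 0.005 after median-ratio rescaling, so a keratin's change relative to it is lower by that much.

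**Figure D1:**
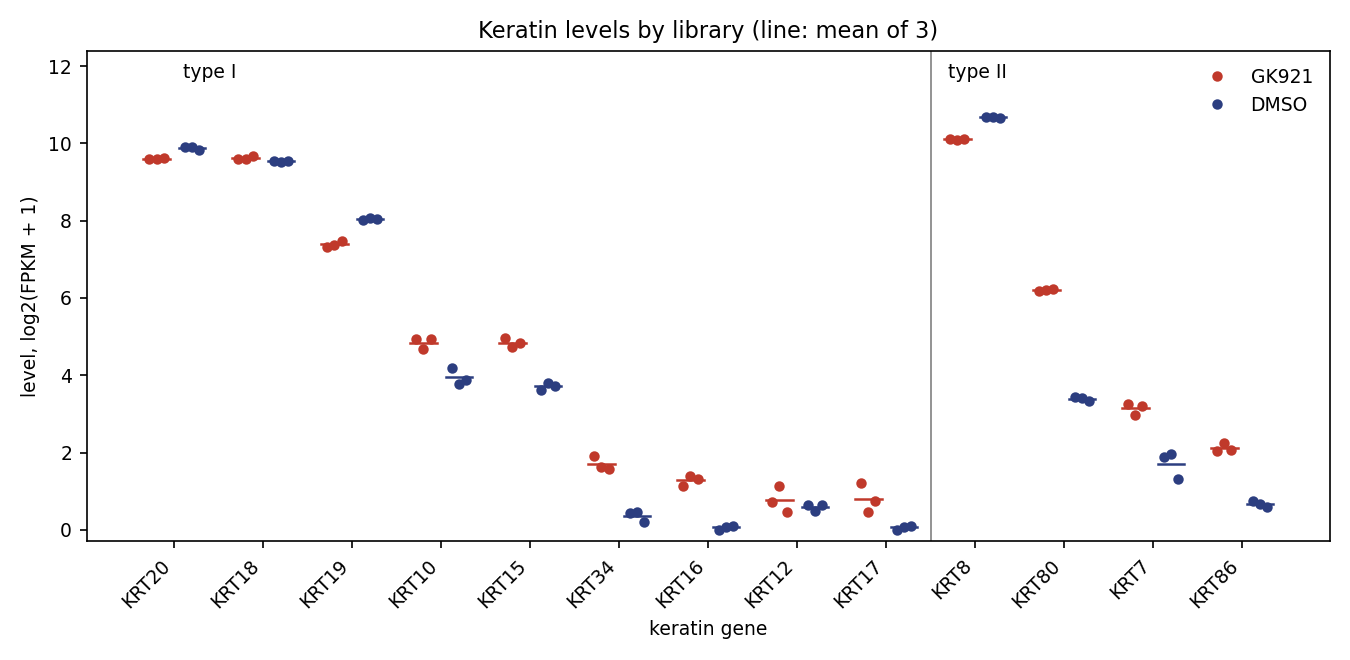
Level of each keratin that reached 1 FPKM in some library, as log2(FPKM + 1), with 1 point a library, GK921 left of DMSO, and a line at the mean of 3. KRT8, KRT20 and KRT19 sit lower after GK921, and KRT80, KRT7, KRT86, KRT10, KRT15, KRT34, KRT16 and KRT17 sit higher with no overlap, as KRT18 does by a small margin, while KRT12 overlaps.

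KRT8 (chromosome 12, 52897187 to 52949954 in GRCh38), the type II chain of simple epithelia, was the most abundant keratin in every library. It was at 1113, 1083 and 1105 FPKM in GK921 libraries, against 1636, 1638 and 1625 FPKM in DMSO libraries. All GK921 values lay well below all DMSO values, and the spread within a group was small. The log2 change was -0.57 ± 0.020 (SE; limma adjusted p = 2.27e-08). KRT8 ranked between 77 and 79 among all genes of a GK921 library, against 48 to 50 in a DMSO library.

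KRT18 (chromosome 12, 52948871 to 52952901), its type I partner and the only type I gene on that chromosome, did not follow it. It was at 770.9, 775.1 and 813.8 FPKM in GK921 libraries, against 740.6, 733.0 and 747.3 FPKM in DMSO libraries. The groups did not overlap, yet the difference was small and the third GK921 library stood above the others of its group. The log2 change of 0.087 ± 0.027 was called higher (limma adjusted p = 0.0157) but lay below the change of the median gene. Median-ratio rescaling gave -0.079, a call in the lower direction (limma adjusted p = 0.0191), and without the third GK921 library or the second DMSO library the call was lost (limma adjusted p = 0.0504 and 0.0544), so no direction holds for KRT18.

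The ratio of KRT8 to KRT18 therefore differed between the groups. It was 1.44, 1.40 and 1.36 in GK921 libraries, against 2.21, 2.23 and 2.18 in DMSO libraries, and a scaling factor per library does not change it. Every GK921 ratio lay below every DMSO ratio by far more than the spread within a group. The ratio compares RNA levels and not protein. KRT8 and KRT18 have many processed pseudogenes: 32.7% of the 50-base windows of the KRT8 transcript and 31.8% of those of KRT18 occur letter for letter in transcripts of other annotated genes, so reads may be split between copies. The annotated spans of KRT8 and KRT18 also overlap on opposite strands, and no source used here says whether strand was kept. The part of either in these values was not tested.

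KRT20 (chromosome 17, 40875941 to 40885227), known from the gut lining, bladder umbrella cells and Merkel cells and not from normal hepatocytes, was the other dominant type I chain. It was at 772.0, 772.0 and 782.3 FPKM in GK921 libraries, against 968.4, 959.2 and 914.9 FPKM in DMSO libraries. The GK921 libraries were lower without overlap, with a log2 change of -0.29 ± 0.027 (limma adjusted p = 1.05e-05). Quantile normalization left -0.033 and no call (limma adjusted p = 0.268). None of its 50-base windows occurs in another annotated gene, so shared reads are not a limit for KRT20 at that length. KRT20 RNA was above KRT18 RNA in each DMSO library and about level with it in the GK921 libraries.

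KRT19 (chromosome 17, 41523617 to 41528308), the smallest keratin and a bile duct and progenitor marker in liver, was at 159.1, 164.1 and 175.8 FPKM in GK921 libraries, against 256.7, 268.7 and 262.2 FPKM in DMSO libraries. It had the lowest change of the 10 tested keratins, -0.66 ± 0.041 on the log2 scale (limma adjusted p = 7.54e-07), with no overlap between groups. It ranked between 720 and 814 among all genes of a GK921 library, against 444 to 467 in a DMSO library.

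KRT7 (chromosome 12, 52232520 to 52252186), the type II chain found with KRT19 in ducts, went the other way. It was at 8.63, 6.85 and 8.29 FPKM in GK921 libraries, against 2.67, 2.90 and 1.47 FPKM in DMSO libraries, a log2 change of 1.44 ± 0.18 (limma adjusted p = 7.04e-05). The groups were clearly apart, although the third DMSO library was low for its group. KRT7 remained a minor keratin: its level was 0.0542, 0.0417 and 0.0472 of that of KRT19 in GK921 libraries, against 0.0104, 0.0108 and 0.00561 in DMSO libraries. Of the 3 other bile duct markers tested, CLDN4 was not called, as given above. SOX9, a ductal transcription factor, averaged 0.767 ± 0.182 FPKM after GK921 and 2.14 ± 0.225 FPKM in DMSO. It passed the limit only through its DMSO values, so its fall was fixed by the limit and no p-value is given. SPP1, which encodes osteopontin, fell to 237.7 ± 11 FPKM, against 351.9 ± 5.11 FPKM in DMSO (limma adjusted p = 9.32e-07). AQP1, a water channel gene of bile ducts below the limit, averaged 0.603 ± 0.0902 FPKM after GK921 and 0.277 ± 0.0987 FPKM in DMSO. With no filter on low values, 1 of 6 bile duct markers was called higher and 2 lower. In that fit 5710 of all 15942 genes (35.8%) were called higher and 3471 lower. KRT7 and the markers thus had no common direction.

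**Figure D2:**
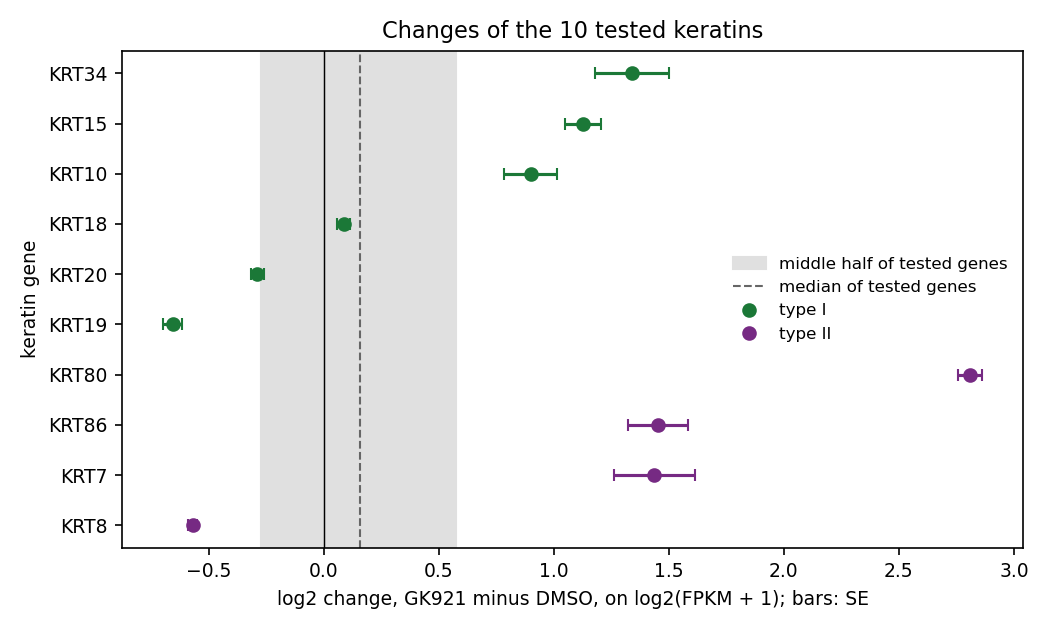
Log2 change of each tested keratin, GK921 minus DMSO, on log2(FPKM + 1), with SE bars, type I above type II. The grey band spans the quartiles of all tested genes, -0.27 to 0.58, and the dashed line marks their median, 0.16; KRT80 stands farthest right and KRT19 farthest left.

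KRT80 (chromosome 12, 52168996 to 52192000), a type II keratin of differentiating epithelia, had the largest log2 change of the 10 tested keratins. It was at 71.8, 72.6 and 74.1 FPKM in GK921 libraries, against 9.93, 9.60 and 9.10 FPKM in DMSO libraries. The values within each group were close together and far from those of the other group. The log2 change was 2.81 ± 0.052 (limma adjusted p = 6.14e-10), and only 42 of the 11573 tested genes had a larger rise on this scale. Under the 17 alternatives tried it ranged from 2.42 to 2.92. Of its 50-base windows 0.42% occur in another annotated gene. Its annotated span overlaps the gene LINC00592 on the opposite strand, and the part of that overlap in these values was not tested.

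The remaining tested type II gene was KRT86 (chromosome 12, 52249300 to 52309163), a keratin of the hair cortex. It was at 3.14, 3.78 and 3.19 FPKM in GK921 libraries, against 0.67, 0.60 and 0.51 FPKM in DMSO libraries. Its log2 change was 1.45 ± 0.13, a direction fixed by the limit, so no p-value is given. The value is uncertain in origin. Its annotated span overlaps KRT7 on the same strand and KRT81 on the other, and 40.5% of its 50-base windows occur in other genes, KRT81 and the pseudogene KRT87P first among them. KRT81 itself was at 0.56, 0 and 0 FPKM in GK921 libraries, against 0.22, 0.11 and 0.25 FPKM in DMSO libraries, with overlapping groups.

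Among the stratified and hair type I keratins, KRT15 (chromosome 17, 41513743 to 41522529), a keratin of basal and hair follicle stem cells, was at 30.3, 25.7 and 27.5 FPKM in GK921 libraries, against 11.4, 12.9 and 12.3 FPKM in DMSO libraries (log2 change 1.13 ± 0.077, limma adjusted p = 1.39e-06). KRT10 (chromosome 17, 40818117 to 40822595), a keratin of suprabasal epidermis, was at 29.4, 24.5 and 29.7 FPKM in GK921 libraries, against 17.3, 12.7 and 13.6 FPKM in DMSO libraries (log2 change 0.90 ± 0.12, limma adjusted p = 9.73e-05). Both rose without overlap, and the GK921 levels of the 2 genes were alike. KRT34 (chromosome 17, 41377650 to 41382403), a hair cortex keratin, was at 2.79, 2.06 and 2.00 FPKM in GK921 libraries, against 0.35, 0.37 and 0.16 FPKM in DMSO libraries. Its log2 change was 1.34 ± 0.16, a direction fixed by the limit, so no p-value is given. Without the first GK921 library its mean fell under the limit and it was not tested.

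The promoters of the tested type I genes held in the sequence table are shown. KRT20 fell and KRT10 rose, while the rise of KRT34 was fixed by the limit. All lie in one cluster on chromosome 17. Whether any letters in these windows go with the direction of a change was not tested. The table, from RefSeq on GRCh38.p14, gave 300 bases around the start of 38 of the 55 keratins and of 4 of the 10 tested ones; the KRT8 window starts 23373 bases from the start of its principal GENCODE transcript and is not shown. Capitals mark the TATA box letters TATAAA and, in KRT34, the letters TGATGNAA of the composite site bound by C/EBP and ATF factors, each searched on both strands.
KRT20, chr17:40885193-40885492, minus strand: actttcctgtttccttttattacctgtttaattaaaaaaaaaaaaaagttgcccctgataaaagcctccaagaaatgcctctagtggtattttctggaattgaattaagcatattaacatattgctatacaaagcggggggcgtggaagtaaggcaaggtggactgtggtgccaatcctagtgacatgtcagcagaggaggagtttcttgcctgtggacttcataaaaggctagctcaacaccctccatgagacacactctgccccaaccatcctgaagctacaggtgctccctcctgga
KRT10, chr17:40822565-40822864, minus strand: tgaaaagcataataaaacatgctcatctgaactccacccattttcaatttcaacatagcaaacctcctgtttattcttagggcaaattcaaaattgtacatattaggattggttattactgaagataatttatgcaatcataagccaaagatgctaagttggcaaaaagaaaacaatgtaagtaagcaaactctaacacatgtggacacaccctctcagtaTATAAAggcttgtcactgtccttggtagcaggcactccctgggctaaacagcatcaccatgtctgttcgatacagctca
KRT34, chr17:41382257-41382556, minus strand: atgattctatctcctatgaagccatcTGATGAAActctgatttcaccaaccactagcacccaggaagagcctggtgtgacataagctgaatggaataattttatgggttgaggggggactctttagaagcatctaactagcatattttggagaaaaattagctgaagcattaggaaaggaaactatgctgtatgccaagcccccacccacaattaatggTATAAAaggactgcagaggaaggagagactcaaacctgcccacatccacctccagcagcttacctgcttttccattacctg
TATAAA stands at -29 in KRT10 and at -31 in KRT34, counted from the RefSeq start, and is not in the KRT20 window. In KRT34 that start lies 97 bases from the start of the principal GENCODE transcript, against 19 bases in KRT10. The position of TATAAA in KRT34 thus depends on the annotation. It occurs in 21 of the 38 keratin windows, against 11.5% of 35116 windows of all genes. TGATGNAA occurs in 3 keratin windows, against 3.62% of all windows. The AP-1 letters TGANTCA occur in none of the 38, against 7.71% of all windows, the E-box CACGTG in 3, against 7.26%, and the GC box GGGCGG in 6, against 45% of all windows. None of the windows was tested for binding.

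Below the limit, KRT16 and KRT17, type I keratins that appear in wounded and stressed epithelium, were near 0 in DMSO libraries. KRT16 was at 1.2, 1.64 and 1.47 FPKM in GK921 libraries, against 0, 0.06 and 0.07 FPKM in DMSO libraries. KRT17 was at 1.30, 0.38 and 0.68 FPKM in GK921 libraries, against 0, 0.06 and 0.07 FPKM in DMSO libraries. The DMSO values of both are at the level of the lowest non-zero keratin values, so no fold is given. The GK921 values of KRT16 were alike and those of KRT17 scattered. With no filter on low values, which tested 26 keratins, the log2 changes were 1.22 ± 0.087 for KRT16 and 0.74 ± 0.17 for KRT17 (limma adjusted p = 1.89e-05 and 0.00808), and 35.8% of the 15942 genes were called higher in that fit. Pseudogenes and sister genes hold 22% of the 50-base windows of KRT16 and 16% of those of KRT17.

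In that fit 1 more keratin was called, KRT79, a type II gene known in mouse from the hair follicle opening and gland ducts, at 0.35, 0.41 and 0.47 FPKM in GK921 libraries, against 0.09, 0.19 and 0.05 FPKM in DMSO libraries (limma adjusted p = 0.00409). KRT12, a cornea keratin, was at 0.65, 1.21 and 0.38 FPKM in GK921 libraries, against 0.55, 0.41 and 0.57 FPKM in DMSO libraries, with overlap (limma adjusted p = 0.393). Its textbook partner KRT3 was at 0, 0.11 and 0 FPKM after GK921, against 0.22, 0.23 and 0.10 FPKM in DMSO (limma adjusted p = 0.0554). All other keratins stayed under 0.5 FPKM in every library apart from KRT81.

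Tested genes of each type went both ways. Of 6 tested type I genes 4 rose and 2 fell (3 and 3 with median ratios, where KRT18 turned). Of 4 tested type II genes, 3 rose and 1 fell. These counts include KRT34 and KRT86, whose rise the limit fixed, and KRT18, for which no direction held. They stand against 46.8% called higher and 29.2% called lower over all tested genes, and are too few to compare the types. The summed level did differ by type, because KRT8 makes up nearly all of the type II total. Type II RNA summed to 1198, 1167 and 1191 FPKM in GK921 libraries, against 1650, 1651 and 1637 FPKM in DMSO libraries. Type I RNA summed to 1768, 1767 and 1834 FPKM in GK921 libraries, against 1996, 1988 and 1951 FPKM in DMSO libraries. The total of type II over type I was 0.678, 0.661 and 0.65 in GK921 libraries, against 0.827, 0.831 and 0.839 in DMSO libraries. Type II keratin RNA was thus the smaller share in all 6 libraries, and smaller still after GK921, with no overlap.

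**Figure D3:**
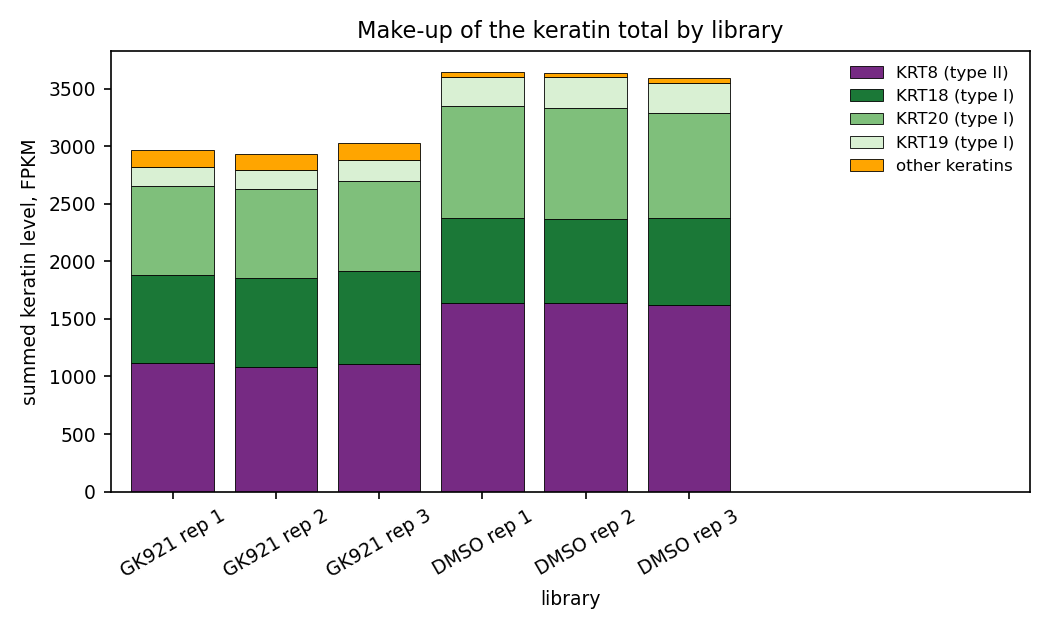
Summed keratin level of each library in FPKM, stacked by gene, GK921 libraries left of DMSO libraries. The total is 2934 to 3025 FPKM after GK921 and 3589 to 3646 FPKM in DMSO, with the KRT8 block smaller and the block of other keratins larger after GK921.

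All keratins together made up 0.36% ± 0.00587 of the summed FPKM in GK921 libraries and 0.435% ± 0.00456 in DMSO libraries (SD, n = 3 each). KRT8, KRT18, KRT19 and KRT20 held 95.1% ± 0.16 of keratin RNA after GK921 and 98.9% ± 0.0643 in DMSO. The share of KRT8 was 37.0% ± 0.509 after GK921 and 45.1% ± 0.21 in DMSO, and that of KRT18 was 26.4% ± 0.455 after GK921 and 20.4% ± 0.354 in DMSO. The share of KRT20 was nearly the same in both groups, 26.1% ± 0.228 after GK921 and 26.1% ± 0.569 in DMSO. All remaining keratins summed to 146.5 ± 5.77 FPKM after GK921 and 41.5 ± 2.53 FPKM in DMSO, and KRT80 was the largest of them in GK921 libraries. In libraries of bulk RNA, fewer cells that express a gene and less of its RNA per cell cannot be told apart.

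Some keratins were present without, and others with, a partner of their usual tissue. KRT1 and KRT2, which pair with KRT10 in epidermis, were listed at 0 in all 6 libraries. KRT5, the partner of KRT15, was likewise at 0, as were KRT6B and KRT6C, while KRT6A, a partner of KRT16, reached 0.05 FPKM in 2 DMSO libraries only. KRT7 had its duct partner KRT19. The hair cortex keratins KRT34 and KRT86, 1 of each type, were both above 0 in all 6 libraries, but at 1 FPKM or more in GK921 libraries only. The origin of the KRT86 value is uncertain, as given above. KRT80 was the next most abundant type II gene after KRT8, at 74.1 FPKM or less.

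On the genome the tested type II genes fall at the ends of their cluster. Chromosome 12 holds all 26 type II genes and KRT18 within 784 kb, and chromosome 17 the other 28 type I genes within 970 kb. KRT80, KRT7 and KRT86 are the first 3 keratins in order along chromosome 12. KRT80 and KRT7 rose, while the rise of KRT86 was fixed by the limit. KRT8 and KRT18 are the last 2. The type II genes between them in order stayed at 0.56 FPKM or less. On chromosome 17 the neighbours KRT15 and KRT19 went in opposite directions, as did KRT10 and KRT20, with KRT12 between them.

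**Figure D4:**
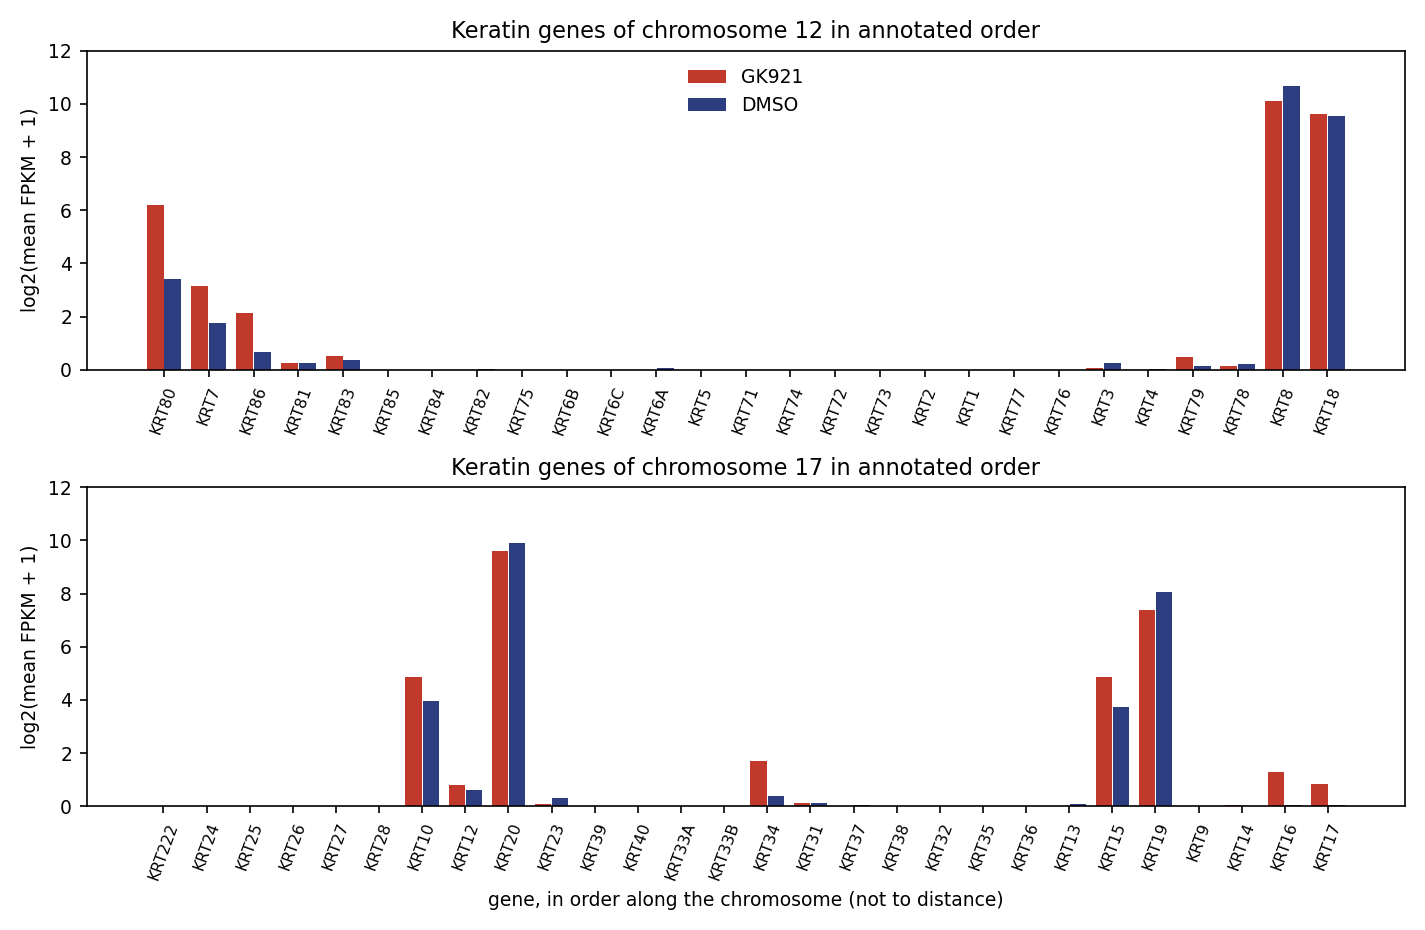
Mean level of each keratin as log2(mean FPKM + 1), in order along chromosome 12 (upper panel) and chromosome 17 (lower panel), GK921 bars left of DMSO bars. On chromosome 12 RNA is found at both ends, from KRT80 to KRT86 and at KRT8 and KRT18, and on chromosome 17 the expressed genes are scattered.

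In the lists that follow, counts stand against the 46.8% of all tested genes called higher, 29.2% called lower and 75.9% called in either direction. Other intermediate filament genes also went both ways. Of 15 listed genes 7 were tested: 3 rose and 4 fell. Their median log2 change was -0.35, against 0.16 for all tested genes. PRPH, which encodes the neuronal filament protein peripherin, rose to 17.5 ± 1.63 FPKM after GK921, against 1.37 ± 0.36 FPKM in DMSO (12.8-fold, limma adjusted p = 7.19e-08). LMNB1, the gene of lamin B1 in the nuclear lamina, fell to 7.98 ± 0.471 FPKM, against 69.3 ± 2.71 FPKM in DMSO (8.68-fold lower, limma adjusted p = 1.02e-09). LMNB2, a second B-type lamin, fell 2.36-fold and NES, the gene of nestin, fell 2.73-fold. These counts were the same under each of the 4 rescalings.

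Tested genes that anchor keratins to the cell border fell more often than they rose. Of 22 desmosome and hemidesmosome genes 14 were tested, 2 rose, 8 fell and 4 were not called (median -0.26), against 46.8% higher and 29.2% lower over all tested genes. DSP, which encodes desmoplakin and ties keratins to desmosomes, fell to 41.5 ± 1.04 FPKM after GK921, against 81.2 ± 1.05 FPKM in DMSO (limma adjusted p = 5.20e-08). ITGA6 and COL17A1, an integrin chain and a collagen of hemidesmosomes, fell 1.99-fold and 2.40-fold. DSC2, a desmosomal cadherin, rose 1.39-fold (limma adjusted p = 0.000617). The other rise, of DSG2, changed sign under rescaling. With median ratios 1 gene of the list rose and 11 fell, against 4259 higher and 4317 lower among all 11568 genes tested that way. With no filter on low values 5 of 21 rose and 8 fell, against 5710 higher (35.8%) and 3471 lower among all 15942 genes of that fit. PPL, the gene of periplakin, averaged 1.35 ± 0.0603 FPKM after GK921 and 0.26 ± 0.01 FPKM in DMSO. DSG1, DSC1 and EPPK1 were also higher without overlap, and all of these genes were below the limit.

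Genes whose proteins bind, modify or cleave keratins had no common direction. Of 17 tested, 8 rose, 5 fell and 4 were not called (median 0.072), close to the shares of all tested genes (46.8% higher, 29.2% lower), so the count is no result about these genes. With median ratios 3 rose and 8 fell, against 4259 higher and 4317 lower among all 11568 genes tested that way. TRADD, a death receptor adaptor that binds KRT18, rose to 33.0 ± 2.66 FPKM after GK921, against 10.2 ± 0.94 FPKM in DMSO (limma adjusted p = 2.35e-07). PNN, the gene of the keratin-binding protein pinin, fell 1.76-fold, YWHAQ, a 14-3-3 gene, 1.86-fold, and CASP6, a caspase that cleaves KRT18, 1.68-fold.

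Genes of Mallory-Denk body components other than keratins mostly rose. The list leaves out KRT8 and KRT18, the keratins of these bodies: KRT8 fell, and no direction held for KRT18. Of 8 tested, 7 rose and 1, TGM2, was not called (median 0.83), against 46.8% called higher over all tested genes; with median ratios TGM2 was called lower. The chaperone genes HSPA1A and HSPA1B, near-identical copies whose reads may be shared, were 2.44-fold and 2.28-fold higher, and HSPB1, a small heat shock gene, rose 1.93-fold. SQSTM1, named here after its values were seen, rose to 2490 ± 40.6 FPKM after GK921, against 1819 ± 35.1 FPKM in DMSO (limma adjusted p = 1.81e-07). No inclusion bodies were measured.

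Of 20 transcription factor genes known from epithelia 12 were tested, 8 rose, 3 fell and 1 was not called (median 0.74), against 46.8% higher and 29.2% lower over all tested genes, and the counts were the same under each of the 4 rescalings. KLF4, a factor of epidermal and gut differentiation, rose to 130.6 ± 4.25 FPKM after GK921, against 41.3 ± 1.40 FPKM in DMSO (limma adjusted p = 3.61e-09). GRHL1, a regulator of desmosomal genes counted among the 8, was at 4.06 ± 0.97 FPKM after GK921 and 0.77 ± 0.115 FPKM in DMSO. It passed the limit only through its GK921 values, so its rise was fixed by the limit and no p-value is given. CEBPB rose 2.46-fold and EHF, an ETS factor of epithelia, fell 1.34-fold. TP63, the master factor of stratified epithelium, stayed at 0.2 FPKM or less in every library, and GRHL2 was listed at 0.

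**Figure D5:**
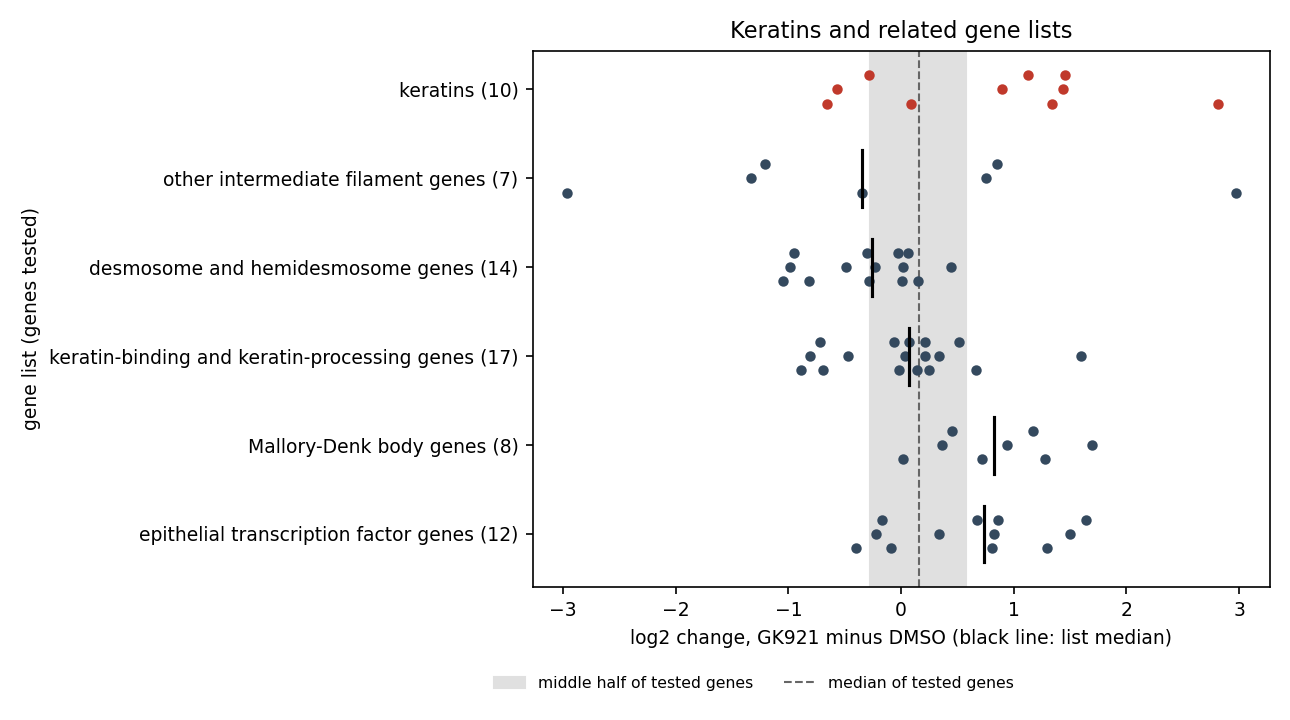
Log2 changes of the tested keratins and of the tested genes of 5 related lists, 1 point a gene, with a black line at the median of each of the 5 lists. The grey band spans the quartiles of all tested genes and the dashed line their median; the medians are -0.35 for other intermediate filament genes, -0.26 for desmosome and hemidesmosome genes, 0.072 for keratin-binding genes, 0.83 for Mallory-Denk body genes and 0.74 for epithelial transcription factor genes.

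The cornified envelope, the protein shell of terminally differentiated skin cells, was not expressed as a set. Of 21 listed genes 12 were at 0 in every library, IVL, the gene of involucrin, among them. The only one tested, CSTA, which encodes cystatin A, was at 14.96, 16.5 and 22.8 FPKM in GK921 libraries, against 2.81, 3.79 and 7.03 FPKM in DMSO libraries (log2 change 1.83 ± 0.26, limma adjusted p = 0.000162). Members below the limit went both ways. FLG, the gene of filaggrin, averaged 0.06 ± 0.02 FPKM after GK921 and 1.603 ± 0.0586 FPKM in DMSO, and SPRR2D, a small proline-rich protein gene, was at 1.46, 0.48 and 2.17 FPKM in GK921 libraries and listed at 0 in all DMSO libraries. With no filter on low values, 2 of 9 members were called higher and 1 lower, against 5710 higher (35.8%) and 3471 lower among all 15942 genes of that fit.

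Of 8 genes of epithelial to mesenchymal transition 7 were tested, 3 rose, 2 fell and 2 were not called (median 0.24), near the shares of all tested genes (46.8% higher, 29.2% lower). With quantile normalization 1 rose and 2 fell, against 4386 higher and 4079 lower among all 11565 genes tested that way. FN1, which encodes fibronectin, fell to 298.2 ± 9.10 FPKM after GK921, against 779.7 ± 2.25 FPKM in DMSO (limma adjusted p = 9.50e-10), and CDH2, the gene of N-cadherin, fell 1.41-fold. ZEB1, a repressor of epithelial genes, rose 1.71-fold (limma adjusted p = 8.28e-06), and ZEB2 rose 1.57-fold, a call lost with quantile normalization. CDH1, the gene of E-cadherin, was at 3.15 ± 0.63 FPKM after GK921 and 2.51 ± 0.35 FPKM in DMSO and was not called (limma adjusted p = 0.167).

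Markers of other cell types were low, with exceptions. The 7 fibroblast markers summed to 22.6 to 28.8 FPKM in GK921 libraries, against 48.5 to 52.6 FPKM in DMSO libraries. LUM and DCN, proteoglycan genes, were the 2 tested. LUM fell to 24.8 ± 2.93 FPKM, against 42.2 ± 1.22 FPKM in DMSO. DCN was at 0.953 ± 0.196 FPKM after GK921 and 8.34 ± 0.969 FPKM in DMSO. It passed the limit only through its DMSO values, so its fall was fixed by the limit. PDGFRB averaged 0.327 FPKM after GK921 and 0.0167 FPKM in DMSO, and the collagen gene COL1A1 was at 0 or at most 0.02 FPKM. The 4 endothelial markers summed to 6.2 to 7.85 FPKM in GK921 libraries, against 5.23 to 5.77 FPKM in DMSO libraries, with CDH5 at 0 in all; of the 2 tested, KDR rose to 2.69 ± 0.185 FPKM, against 1.62 ± 0.25 FPKM in DMSO, a call lost with quantile normalization, and PECAM1 was not called (limma adjusted p = 0.888). VWF averaged 0.143 FPKM after GK921 and 0.107 FPKM in DMSO. The 6 leukocyte markers summed to 96.7 to 112 FPKM in GK921 libraries, against 104.7 to 112.6 FPKM in DMSO libraries, nearly all from CD68, a lysosomal gene. The 2 tested were CD68 (limma adjusted p = 0.0823) and LYZ, and neither was called. LYZ was at 2.03 ± 1.69 FPKM after GK921 and 0.303 ± 0.388 FPKM in DMSO. It passed the limit only through its GK921 values, so its direction was fixed by the limit and no p-value is given. PTPRC averaged 0.413 FPKM after GK921 and 0.277 FPKM in DMSO. The hepatocyte markers summed to 7.74 to 11.2 FPKM in GK921 libraries, against 11.1 to 12.6 FPKM in DMSO libraries, and the bile duct markers to 444.4 to 472.4 FPKM in GK921 libraries, against 574.4 to 577 FPKM in DMSO libraries. The part of any of these in the keratin changes was not tested.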

How the data were processed

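RNA was measured in 6 MHCC-97H libraries. The deposited table holds FPKM by gene symbol to 2 decimals, per the file headers. Per the submitters' processing notes, hg38 was the build and HISAT2, featureCounts, edgeR and FastQC were used, in roles not stated; no source used here gives library selection, strand or annotation. Absolute depth is unknown, so no counting intervals were set; relative depth came from steps between low values. FPKM is relative to each library's total, so it cannot show a change in total RNA per cell.

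The log2(FPKM + 1) values, a scale that understates changes of low genes, were tested by limma 3.58.1 (R 4.3.3) where the mean reached 1 FPKM, with treatment as the only term, an intensity trend and Benjamini-Hochberg adjustment over all tested genes; folds are ratios of mean FPKM. The fit was tested on simulated data. Positions and 50-base windows came from GENCODE release 29 (GRCh38), in which all 55 keratins were matched, with 1 principal transcript a gene; the authors may have used another release. Keratin types and classes were assigned by gene symbol from the standard nomenclature.

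Named genes were all keratins with a mean of at least 1 FPKM or a value of at least 1 FPKM in a library, up to 4 called genes of each other list by size of change with both directions where called, and the 3 most abundant of marker lists; a marker named as being at or near 0, and genes outside this rule such as TGM2, KRT3, KRT23, KRT79, KRT81, AQP1, FLG, SPRR2D, PPL, DSG1, DSC1, EPPK1, IVL, TP63 and CDH1, were chosen after their values were seen. The members and lists were chosen with earlier results of these data known. Some genes that this rule takes are not reported here.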

Additional observations from a re-analysis of the deposited data

How the results depend on the processing

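Alternatives were pseudocounts of 0.1 and 5, no filter on low values, a limit of 5 FPKM, 4 rescalings, the replicate number as a block, no intensity trend, array weights, and each of the 6 libraries left out in turn. KRT80, KRT7, KRT10 and KRT15 stayed called higher, and KRT8 and KRT19 called lower, in every alternative that tested them. The calls of KRT86 and KRT34 are left out of this statement, because the limit fixed their rise. KRT18 reversed with median ratios (-0.079) and upper quartiles (-0.025, limma adjusted p = 0.416). It lost its call without an intensity trend (limma adjusted p = 0.112), without the second DMSO library and without the third GK921 library. KRT20 lost its call with quantile normalization alone (-0.033). The count of keratins called was 10 as deposited and 8 to 13 otherwise, 9 or 10 with a library left out and 10 with the replicate block. Samples that share a replicate number did not deviate together (correlations of 0.031, 0.047 and -0.0021 across genes). The labels do not say whether the numbers pair samples, so pairing remains unknown. Low keratins (KRT16, KRT17, KRT79) rest on few fragments, and reads of KRT8, KRT18 and KRT86 may be shared with other genes. The annotated spans of KRT80, KRT7 and KRT10 also overlap other genes on the opposite strand, and the part of these overlaps was not tested. Counts of calls on marker lists with 1 to 3 tested genes moved by over 1.5 times in some alternatives, most often for the leukocyte markers (7 of 17).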

Other observations

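Of 94 hair keratin-associated protein genes, a list taken up after the data were seen, 76 were listed at 0 in every library and 2 were tested. KRTAP4-1 was at 2.71 ± 0.84 FPKM after GK921 and 0.897 ± 0.598 FPKM in DMSO (SD, n = 3 each). It passed the limit of 1 FPKM only through its GK921 values, so its rise was fixed by the limit and no p-value is given. KRTAP2-3 was not called (limma adjusted p = 0.175).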
